A study of Trichoderma reesei with 9 samples.

Results

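Glycosyltransferase genes of the filamentous fungus Trichoderma reesei were followed across 9 RNA-seq libraries of mycelium: 3 of the parent strain Rut-C30, 3 of the deletion strain Rut-C30-delta-vps13 (Δvps13) and 3 of Rut-C30-delta-vps21 (Δvps21). A gene was taken as a member when its deposited description names a numbered glycosyltransferase family (GT). This gave 72 of the 10348 genes in the table, in 27 families, and 71 of them had enough counts to be tested, among 8906 tested genes in all. The labels call Rut-C30 wild type; it is a mutant strain bred for high cellulase secretion, and both deletions were made in it. Every mycelium had grown for 96 h with Avicel, a microcrystalline cellulose that induces cellulases. The labels name 1 strain per deletion. They do not tell whether a strain's 3 libraries came from different cultures, and p-values then reflect no more than the spread among these libraries, which may be technical. The comparison asks which transcripts change when a gene of vacuolar protein sorting is removed.

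Glycosyltransferases move a sugar from an activated donor, such as a nucleotide sugar or a dolichol-linked sugar, onto another sugar, a protein or a lipid. In fungi they build the chitin and beta-glucan of the cell wall at the plasma membrane, the mannose-rich glycans of secreted and wall proteins in the endoplasmic reticulum (ER) and Golgi, the lipid-linked precursor of N-glycans, the glycosylphosphatidylinositol (GPI) anchor, and the storage sugars trehalose and glycogen. The secreted cellulases of Trichoderma reesei are themselves N- and O-glycosylated.

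Library totals ran from 12127372 to 13493219 counts. Expression is given as CPM, the count relative to the TMM-scaled library size, and a gene is said to be called, to rise or to fall at a Benjamini-Hochberg adjusted p under 0.05 over all tested genes (edgeR quasi-likelihood test over all 9 libraries). No gene of the table carries the names vps13 or vps21, but the rab5-like gene TRIREDRAFT_123015, of the family to which yeast Vps21 belongs, dropped from 1607, 1365 and 1529 counts in wild-type libraries to 2, 2 and 2 in those of Δvps21, while the loss of the vps13 transcript could not be checked. The Δvps13 libraries stood apart from each other: the median SD of the tested members on the log2 scale was 0.33 in Δvps13, against 0.15 in the wild type and 0.16 in Δvps21 (0.47, 0.18 and 0.22 over all tested genes). Results that rest on single Δvps13 libraries are therefore given with and without them.

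Most members were expressed at moderate levels, and 1 stood far above the rest. On the deposited FPKM scale, which divides by gene length and so allows genes to be compared, the median member had 21.5 FPKM in the wild type, against 8.99 over all genes. In the wild type 5 members had 100 FPKM or more, 43 had 10 to 100, 16 had 1 to 10 and 8 had under 1. The most abundant was the GT4 gene TRIREDRAFT_121491, at 4264 ± 317 FPKM (mean ± SD, n = 3), which placed it at rank 23 of all genes in the wild type. The others above 100 FPKM were the GT20 gene TRIREDRAFT_75295 (271 ± 32.3 FPKM), the GT32 gene TRIREDRAFT_80340 (163 ± 14), the GT48 gene TRIREDRAFT_78176 (118 ± 15.6) and the GT64 gene TRIREDRAFT_62377 (104 ± 7.32). The last 2 differed by less than the larger of their SDs, whereas each of the first 3 genes was above the next by more than its SD.

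**Figure D1:**
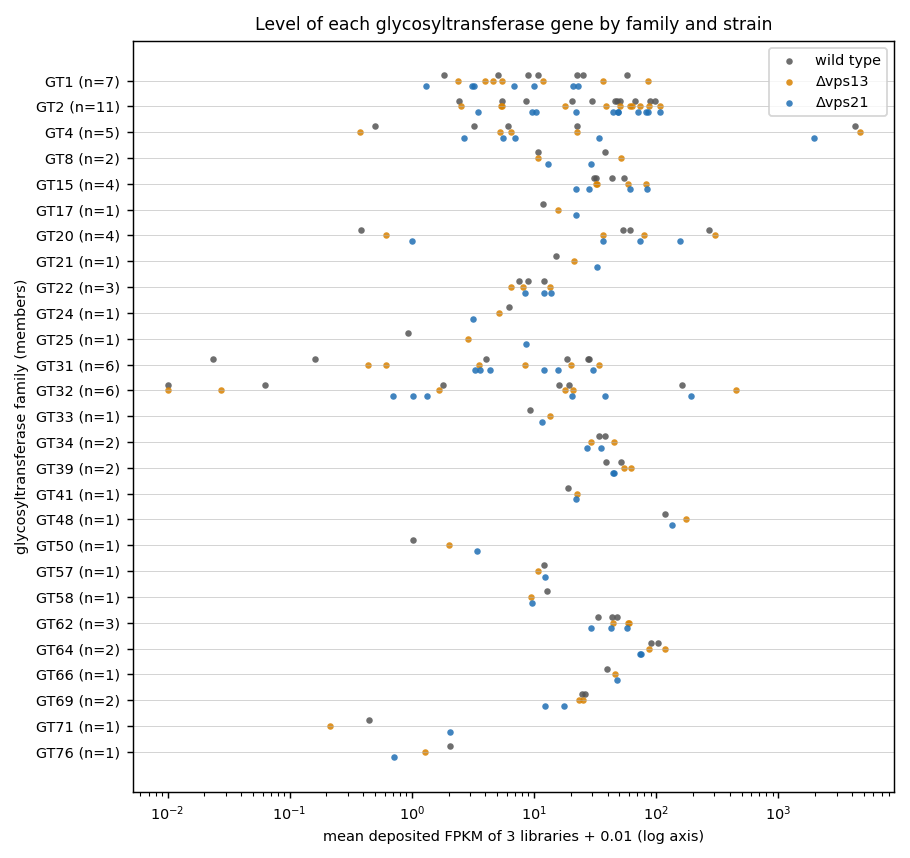
Mean deposited FPKM of each of the 72 members, plus 0.01 so that 0 can be drawn on the log axis, by glycosyltransferase family (rows), with 1 dot per gene and strain (mean of 3 libraries; grey wild type, orange Δvps13, blue Δvps21). The GT4 gene TRIREDRAFT_121491 lies alone at the right, and the leftmost grey dots, in families 31 and 32, have blue dots far to their right.

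Together the members took 1.72, 1.75 and 1.72% of the counts in the wild-type libraries, 1.44, 1.65 and 1.44% in Δvps13 and 1.01, 0.941 and 0.967% in Δvps21. TRIREDRAFT_121491 alone accounted for 1.13, 1.12 and 1.14% in the wild type and for 0.471, 0.442 and 0.442% in Δvps21. Without it the members' share was 0.591, 0.631 and 0.58% in the wild type and 0.542, 0.499 and 0.525% in Δvps21, so most of the difference in the summed share lay in this gene. These are bulk samples of mycelium, in which fewer cells of a kind and less RNA per cell cannot be told apart.

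Against the wild type, few members changed in Δvps13 and many more in Δvps21. In Δvps13, 3 members rose and 2 fell of 71 (7.04%), where 10.4% of all tested genes were called, 5.65% higher and 4.75% lower. In Δvps21, 17 rose and 8 fell (35.2%), where 32.5% of all tested genes were called, 16.7% higher and 15.8% lower. In Δvps21 against Δvps13, 11 were higher and 6 lower (23.9%), where 15.2% of all tested genes were called, 7.68% higher and 7.55% lower. The total shares for the comparisons with the wild type were near these backgrounds, and the median log2 ratio of the members was 0.11 in Δvps13 and 0.09 in Δvps21, against 0.04 and -0.02 over all tested genes. The split into higher and lower depended on scaling: with library totals only, which shifts the median log2 of all tested genes to -0.25 in Δvps13 and -0.20 in Δvps21, it was 1 up and 7 down in Δvps13 and 9 up and 11 down in Δvps21. Leaving out Δvps13 replicate 3 raised the Δvps13 count to 13 up and 6 down, and 8 were called without Δvps13 replicate 1. Without wild-type replicates 1, 2 and 3 the count was 3, 1 and 3. Over all tested genes, 926 were called in Δvps13, 3233 without Δvps13 replicate 3 and 1130 without Δvps13 replicate 1. Without wild-type replicates 1, 2 and 3, 282, 165 and 256 of all tested genes were called. On the simpler count of members whose libraries did not overlap with the wild type, 10 were above and 6 below in Δvps13 (14% and 16% of all tested genes), and 27 were above and 19 below in Δvps21 (30.2% and 31.6%). In Δvps21 the called total was 12, 13 and 15 without wild-type replicates 1, 2 and 3. It was 14 and 12 without Δvps21 replicates 1 and 3. Calls over all tested genes moved the same way, from 2897 to 2009, 1810 and 1970 without these wild-type replicates. Without Δvps21 replicates 1 and 3 they were 1901 and 1705. Of the 25 called members, 11 were called whichever of the 9 libraries was left out. Of the 5 in Δvps13 this was so of 1. In Δvps21 against Δvps13 the total was 11, 10 and 9 without wild-type replicates 1, 2 and 3 and 7, 7 and 5 without Δvps21 replicates 1, 2 and 3. When only these 2 strains were fitted it was 8. Over all tested genes 1356 were called, and 1045, 983 and 983 without wild-type replicates 1, 2 and 3. Without Δvps21 replicates 1, 2 and 3 these were 744, 770 and 514, and 612 when only these 2 strains were fitted.

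**Figure D2:**
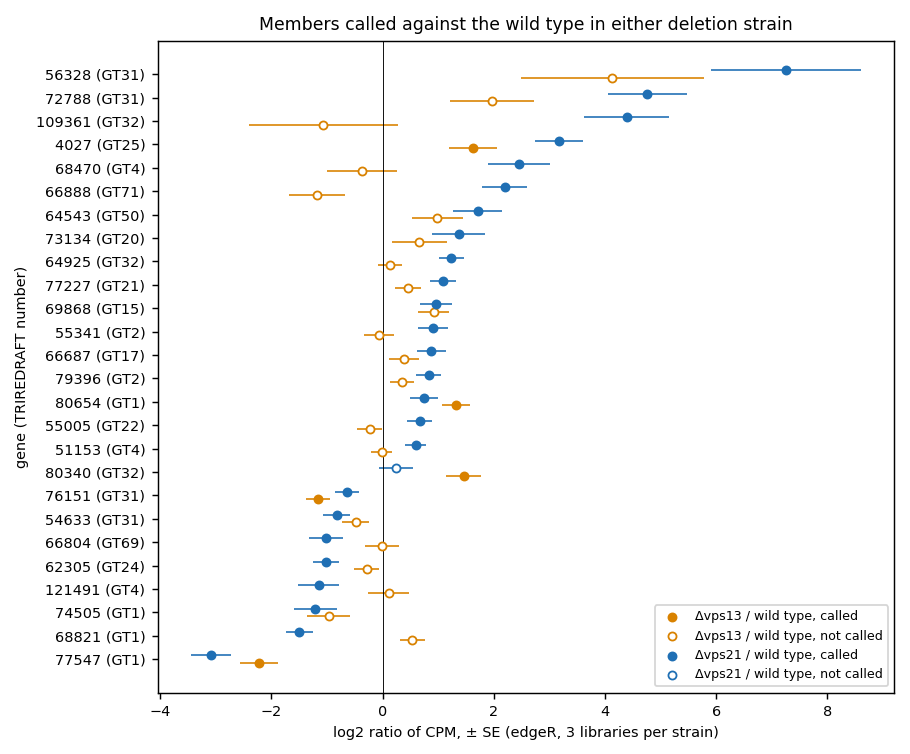
Log2 ratios to the wild type with their SE (edgeR, 3 libraries per strain) for the 26 members called in either deletion strain, ordered by the ratio in Δvps21; filled points are called and open points are not, orange Δvps13 and blue Δvps21. The 2 ratio sets share the wild-type libraries, and the fitted ratios of the genes at the top, which have almost no counts in the wild type, depend on the prior count of the fit.

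The most abundant member was lower in Δvps21. TRIREDRAFT_121491 (NW_006711154.1, 1352772 to 1355600) belongs to family GT4, a broad family that includes mannosyltransferases of N-glycan assembly and enzymes of sucrose and trehalose metabolism, and its description gives no activity. It had 9461, 10030.4 and 10668 CPM across the wild-type libraries, 5908, 12723 and 13868 across Δvps13 and 4389, 4544 and 4709 across Δvps21. All 3 Δvps21 libraries lay below every other library. On the TMM scale Δvps13 replicate 1 lay below the wild type and replicates 2 and 3 lay above it. The TMM factors of the Δvps13 libraries were 1.21, 0.841 and 0.699. As an unscaled share of counts, all 3 Δvps13 libraries were below the wild type, at 0.716, 1.07 and 0.969% against 1.12 to 1.14%. It fell 2.21-fold in Δvps21 (log2 -1.14, SE 0.37, adjusted p = 0.0348) and was not called for Δvps13 (log2 0.11, adjusted p = 0.868). Δvps21 was also below Δvps13 (log2 -1.25, adjusted p = 0.0429). Both calls lay close to the threshold in the fit of all 9 libraries and moved both ways in other fits. Against the wild type the adjusted p was 0.0811 to 0.119 without any 1 wild-type or Δvps21 library. It was 4.81e-04 to 0.0373 without any 1 Δvps13 library and 0.00113 by DESeq2. Scaled by library totals only it was 5.42e-04, and 3.56e-05 when only these 2 strains were fitted. Against Δvps13 it was 0.0722 to 0.147 without any 1 wild-type or Δvps21 library and 0.0881 and 0.0508 without Δvps13 replicates 2 and 3. When only the 2 deletion strains were fitted it was 0.138. It was 3.63e-04 without Δvps13 replicate 1, 5.25e-04 by DESeq2 and 0.00516 scaled by library totals only. In the wild type its level was 4264 FPKM, and the next 2 GT4 genes had 22.3 and 6.09 FPKM.

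Of the other 4 GT4 genes, 2 rose in Δvps21. TRIREDRAFT_68470 had 0.316, 0.419 and 1.58 CPM across the wild-type libraries, 0.637, 0.617 and 0.472 across Δvps13 and 4.55, 2.75 and 5.26 across Δvps21. It was low everywhere else, its Δvps21 libraries were above all others, and it rose 5.46-fold (log2 2.45, SE 0.56, adjusted p = 0.00737; log2 3.51 without wild-type replicate 3). This gene passed the count filter through its Δvps21 libraries, so the call follows in part from the filter. TRIREDRAFT_51153 had 31.7, 40.4 and 34.3 CPM across the wild-type libraries, 34.2, 40.9 and 29.7 across Δvps13 and 54.8, 51.9 and 54.2 across Δvps21. Its Δvps21 values did not overlap with the others either, with a smaller ratio of 1.51-fold (log2 0.60, SE 0.19, adjusted p = 0.0303); the adjusted p was 0.0507 to 0.108 without any 1 wild-type or Δvps21 library and 0.283 scaled by library totals only. TRIREDRAFT_70035 and TRIREDRAFT_63341 were not called in either strain, and Δvps13 replicates 1, 2 and 3 of the latter had 14.3, 7.14 and 2.12 CPM, against 3.99 to 5.72 in the wild type. TRIREDRAFT_63341 had a log2 ratio of 0.70 in Δvps13 (adjusted p = 0.374). That p became 0.0105 without Δvps13 replicate 3. In Δvps21 all 3 libraries were above the wild type (log2 0.77, adjusted p = 0.262). That p became 0.0335 without Δvps13 replicate 3 and 0.00735 when only these 2 strains were fitted. Against Δvps13, TRIREDRAFT_51153 was higher in Δvps21 too (log2 0.62, SE 0.19, adjusted p = 0.0472). That p became 0.0720 to 0.147 without any 1 wild-type or Δvps21 library, 0.0653 and 0.0544 without Δvps13 replicates 1 and 3, 0.127 when only these 2 strains were fitted, 0.115 scaled by library totals only, 0.0511 with median-ratio size factors and 0.0570 with no filter on low counts.

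In the families that include the chitin and beta-1,3-glucan synthases, 2 genes rose in Δvps21. Neither is described as a chitin synthase or belongs to family GT48. Family GT48 holds the beta-1,3-glucan synthases, of which yeast Fks1 is the best known, and family GT2 holds the chitin synthases besides other enzymes. Of the 11 members of both families other than dpm1, 0 were called in Δvps13 (edgeR; 1 by DESeq2, and 2 at unadjusted p under 0.05), 2 rose in Δvps21 and 9 were not called there, where 10.4% and 32.5% of all tested genes were called in the 2 strains, with median log2 ratios of 0.12 and 0.18. The only GT48 member, TRIREDRAFT_78176 (NW_006711157.1, 32317 to 38826), had 637, 804 and 776 CPM across the wild-type libraries, 1209.6, 1099.8 and 963 across Δvps13 and 794, 786 and 930.2 across Δvps21. Every Δvps13 library was above every wild-type library, but the difference was not called (log2 0.56, SE 0.23, adjusted p = 0.135). That p became 0.0466 without Δvps13 replicate 3 and 0.0193 by DESeq2. In Δvps21 its log2 ratio was 0.18 (adjusted p = 0.581).

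In all, 3 members are described as chitin synthases. TRIREDRAFT_71563 and TRIREDRAFT_122172 lie 5225 bases apart on contig NW_006711158.1, on opposite strands and transcribed away from each other, with 1 gene model between them, and the second carries a myosin head domain in the deposited table, a feature of a class of chitin synthases found in filamentous fungi. TRIREDRAFT_71563 had 252, 326 and 309 CPM across the wild-type libraries, 348, 294 and 457 across Δvps13 and 267, 274 and 306 across Δvps21, and its groups overlapped in each comparison. TRIREDRAFT_122172 had 169, 192 and 203 CPM across the wild-type libraries, 277, 218 and 223 across Δvps13 and 261, 263 and 294 across Δvps21. For this gene both deletion strains lay wholly above the wild type, yet the ratios were not called in Δvps13 (log2 0.35, adjusted p = 0.255) or in Δvps21 (log2 0.54, adjusted p = 0.0540). The Δvps21 adjusted p was 0.0164 and 0.0234 without Δvps13 replicates 1 and 3, 0.00922 by DESeq2 and 0.00415 when only these 2 strains were fitted. The neighbouring pair thus had log2 ratios of -0.07 and 0.54 in Δvps21. The third, TRIREDRAFT_112271, had 50.9, 58.1 and 57.7 CPM across the wild-type libraries, 53.7, 57 and 32.6 across Δvps13 and 63.3, 57.2 and 56.7 across Δvps21 and was not called in either strain.

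Among the other GT2 members, TRIREDRAFT_79396, described as a polysaccharide synthase, had 72.9, 75.6 and 75.7 CPM across the wild-type libraries, 112, 69 and 104 across Δvps13 and 109.6, 133 and 156 across Δvps21. It rose 1.78-fold in Δvps21, where all 3 libraries were above the wild type (log2 0.83, SE 0.22, adjusted p = 0.0154). That p became 0.0566 without wild-type replicate 2, 0.0751 without Δvps21 replicate 3 and 0.129 scaled by library totals only. TRIREDRAFT_55341 had 14, 19.6 and 15.8 CPM across the wild-type libraries, 16, 21.3 and 10.03 across Δvps13 and 29.6, 30.9 and 31.9 across Δvps21. All 3 of its Δvps21 libraries were above the other 6, and it rose 1.87-fold (log2 0.90, SE 0.27, adjusted p = 0.0243). This adjusted p was 0.0589 to 0.0796 without any 1 Δvps21 library, 0.0935 and 0.0796 without wild-type replicates 1 and 3 and 0.148 scaled by library totals only. It was also higher in Δvps21 than in Δvps13 (log2 0.96, SE 0.27, adjusted p = 0.0344). That p became 0.0530 to 0.118 without any 1 wild-type or Δvps21 library, 0.0955 when only these 2 strains were fitted and 0.0792 scaled by library totals only. TRIREDRAFT_124228 was higher in Δvps21 than in Δvps13 too (log2 0.81, SE 0.24, adjusted p = 0.0423, but 0.0641 to 0.0762 without any 1 wild-type library, 0.0688 without Δvps13 replicate 1, 0.114 and 0.178 without Δvps21 replicates 2 and 3, 0.120 when only these 2 strains were fitted and 0.0525 scaled by library totals only), with 16.2 to 24.8 CPM against 10.4 to 14.4. The most abundant GT2 member, TRIREDRAFT_51492, had 299, 307 and 272 CPM across the wild-type libraries, 296, 432 and 210.2 across Δvps13 and 308, 309 and 340.1 across Δvps21, and Δvps13 alone spanned the whole range of the other strains. TRIREDRAFT_58188, TRIREDRAFT_121227 and TRIREDRAFT_122993 were not called in either strain, with log2 ratios of 0.13, 0.12 and 0.03 in Δvps13 and 0.30, 0.08 and 0.49 in Δvps21.

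In families linked to protein mannosylation, most genes were not called. In Δvps13, 1 abundant gene was higher, and in Δvps21 4 genes were, 2 of them under 1 FPKM in the wild type. The group comprised dpm1 and the members of families GT15, GT32, GT34, GT39, GT62 and GT71: in yeast, GT39 enzymes begin O-mannosylation in the ER, and Golgi enzymes of GT15, GT32, GT34, GT62 and GT71 lengthen the mannose chains. Apart from dpm1, genes were placed here by family number alone, and their descriptions give no activity. Of 18 tested, 1 rose in Δvps13, and 4 rose in Δvps21, where the other 14 were not called. Over all tested genes 5.65% rose and 4.75% fell in Δvps13, and 16.7% rose and 15.8% fell in Δvps21. The single riser in Δvps13 was the GT32 gene TRIREDRAFT_80340 (NW_006711165.1, 156191 to 157379), with 187, 166 and 195 CPM across the wild-type libraries, 353, 348 and 805 across Δvps13 and 215, 231 and 199.7 across Δvps21. Every Δvps13 library was above every wild-type library, and replicate 3 was the highest of them. It rose 2.75-fold in Δvps13 (log2 1.46, SE 0.32, adjusted p = 0.0176) and was not called in Δvps21 (log2 0.24, adjusted p = 0.589). With any 1 library left out the Δvps13 log2 ratio ran from 0.96 to 1.67. The call held without Δvps13 replicate 3 (adjusted p = 0.00254). The Δvps13 adjusted p was 0.0650 to 0.0934 without any 1 wild-type library and 0.0682 when only these 2 strains were fitted. Δvps21 was below Δvps13 (log2 -1.22, adjusted p = 0.0248). That p became 0.0712 to 0.109 without any 1 Δvps21 library and 0.0847 when only these 2 strains were fitted. It was 0.0188 without Δvps13 replicate 3, and the log2 ratio ran from -1.425 to -0.70 with any 1 library left out.

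Of the other GT32 genes, 2 rose in Δvps21, and the untested one had counts in Δvps21 libraries only. TRIREDRAFT_64925 had 12.5, 16.5 and 18.1 CPM across the wild-type libraries, 17.1, 14.7 and 19.7 across Δvps13 and 39.6, 32.5 and 38.9 across Δvps21. All 3 Δvps21 libraries were above the other 6; it rose 2.36-fold against the wild type (log2 1.24, SE 0.22, adjusted p = 0.00183) and was higher than in Δvps13 (log2 1.11, SE 0.22, adjusted p = 0.00764), and both calls held with any 1 library left out. TRIREDRAFT_109361 had 2, 1 and 0 counts across the wild-type libraries, 1, 0 and 0 across Δvps13 and 18, 31 and 13 across Δvps21. Its summed counts were 62 in Δvps21 against 3 in the wild type, which is 23.5-fold with library size taken into account (95% counting interval from 7.67 to 117). Against the 1 count in Δvps13 it was 57.5-fold (9.95 to 2309). The fitted log2 ratios were 4.39 to the wild type, and 5.17 without wild-type replicate 1, and 5.46 to Δvps13, and 7.38 without Δvps13 replicate 1. Both differences were called (adjusted p = 0.00171 and 0.00340), although this gene reached the count filter only through the Δvps21 libraries and so had to differ. TRIREDRAFT_120923, the member too low to be tested, had 0, 0 and 0 counts across the wild-type libraries, 0, 0 and 0 across Δvps13 and 8, 3 and 20 across Δvps21. With library size taken into account, its 31 counts in Δvps21 were 11.7-fold a floor of 3 counts over the wild-type group. Against the same floor in Δvps13 they were 9.59-fold. The 31 was taken as exact, though 20 of these counts were in replicate 3, so the ratios are not lower bounds. TRIREDRAFT_65646 and TRIREDRAFT_4561 were not called in either strain. Counting intervals cover counting error only, and the floors cover that of the 0 counts only.

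The single GT71 gene, TRIREDRAFT_66888, of the family of yeast Mnn1, was low in every strain and had 0.632, 0.628 and 0.753 CPM across the wild-type libraries, 0.191, 0.265 and 0.472 across Δvps13 and 3.55, 3.31 and 2.46 across Δvps21. The 3 strains did not overlap: Δvps13 was lowest and Δvps21 highest, and Δvps21 was 4.60-fold above the wild type (log2 2.20, SE 0.40, adjusted p = 0.00236) and 10.40-fold above Δvps13 (log2 3.38, SE 0.46, adjusted p = 0.00117). This gene passed the count filter through its Δvps21 libraries, so its Δvps21 calls follow in part from the filter. Δvps13 against the wild type was not called (log2 -1.18, adjusted p = 0.148). In family GT15, of yeast Kre2, TRIREDRAFT_69868 had 49.5, 53.1 and 60.9 CPM across the wild-type libraries, 62.5, 100.2 and 146 across Δvps13 and 84.5, 109 and 124 across Δvps21. Both deletion strains were wholly above the wild type, with a rise of 1.94-fold in Δvps21 (log2 0.96, SE 0.28, adjusted p = 0.0251). That p became 0.0834 and 0.0834 without wild-type replicates 1 and 2 and 0.0625 and 0.0994 without Δvps21 replicates 2 and 3. In Δvps13 the ratio was nearly as large but not called (log2 0.92, SE 0.28, adjusted p = 0.0625, but 0.00840 without Δvps13 replicate 1 and 0.0242 by DESeq2), and its replicates ran from 62.5 to 146 CPM. The other 3 GT15 genes were not called; TRIREDRAFT_46421 had a log2 ratio of -0.55 in Δvps21 (adjusted p = 0.0598). That p became 0.0292 to 0.0448 without any 1 Δvps13 library, 0.0458 by DESeq2 and 0.00832 when only these 2 strains were fitted.

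The 2 GT39 genes, the O-mannosyltransferase family, were not called in either strain. TRIREDRAFT_22527 had 80.1, 91.8 and 91.6 CPM across the wild-type libraries, 130.5, 118 and 115 across Δvps13 and 94.2, 98.3 and 100.5 across Δvps21. Its strains did not overlap, with Δvps13 highest, at log2 0.47 against the wild type (SE 0.17, adjusted p = 0.0940, but 0.0293 without Δvps13 replicate 3 and 0.0150 by DESeq2). TRIREDRAFT_22005 had 141, 189 and 160.2 CPM across the wild-type libraries, 196, 217 and 179 across Δvps13 and 142, 146 and 139.9 across Δvps21, with the wild type and Δvps13 overlapping. The dolichol phosphate mannose synthase gene dpm1, which makes the mannose donor of the ER, had 79.2, 89.6 and 89.1 CPM across the wild-type libraries, 49.9, 78.3 and 121 across Δvps13 and 58.6, 78.4 and 68.2 across Δvps21. Its log2 ratio was -0.05 in Δvps13 and -0.33 in Δvps21 (adjusted p = 0.913 and 0.392). In families GT62 (3 genes) and GT34 (2 genes), relatives of yeast Mnn9 and Mnn10, the 5 members were not called, with log2 ratios of -0.25 to 0.42 in Δvps13 and -0.35 to 0.26 in Δvps21. Without Δvps13 replicate 3 the GT62 genes TRIREDRAFT_81211 and TRIREDRAFT_58609 were called higher in Δvps13 (adjusted p = 0.0175 and 0.0222) and lower in Δvps21 than in Δvps13 (adjusted p = 0.0175 and 0.00754).

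In the assembly of N-glycans and GPI anchors, 0 of 10 members were called in Δvps13 (edgeR; 0 by DESeq2 and 0 at unadjusted p under 0.05), and 2 rose and 1 fell in Δvps21. Of all tested genes, 10.4% were called in Δvps13, and 16.7% rose and 15.8% fell in Δvps21. The 10 were grouped by family number (GT22, GT24, GT33, GT50, GT57, GT58, GT66 and GT76). GT4, which includes mannosyltransferases of N-glycan assembly, was counted apart, so the 10 need not be the whole pathway. The gene that fell was TRIREDRAFT_62305 (NW_006711157.1, 39083 to 43712) of GT24, the family of the glucosyltransferase that tags misfolded glycoproteins in the ER for another round of folding. It had 29.1, 31.2 and 24.5 CPM across the wild-type libraries, 29.2, 22.8 and 17.2 across Δvps13 and 15.6, 14.1 and 12.1 across Δvps21. All 3 Δvps21 libraries were below the other 6, a fall of 2.02-fold (log2 -1.02, SE 0.24, adjusted p = 0.00794) that was called whichever library was left out. Against Δvps13 the ratio was not called (log2 -0.73, SE 0.24, adjusted p = 0.0596). That p became 0.00810 without Δvps13 replicate 3 and 0.0242 by DESeq2. The gene lies 256 bases from the GT48 gene TRIREDRAFT_78176 and faces it, so reads at their ends may be shared in counts that do not use strand. TRIREDRAFT_78176 itself was not called in Δvps21.

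Of the 2 that rose, TRIREDRAFT_64543 had 1.02 FPKM in the wild type and TRIREDRAFT_55005 had 7.56 FPKM. The median over all genes was 8.99 FPKM. TRIREDRAFT_64543 of GT50, the family of the first mannosyltransferase of the GPI anchor, had 1.2, 1.47 and 1.2 CPM across the wild-type libraries, 4.21, 1.68 and 1.65 across Δvps13 and 2.91, 5.49 and 4.32 across Δvps21. Both deletion strains were above the wild type, and it rose 3.27-fold in Δvps21 (log2 1.71, SE 0.45, adjusted p = 0.0139). That p became 0.0517 without wild-type replicate 1, 0.0524 without Δvps21 replicate 2 and 0.0586 scaled by library totals only. In Δvps13 it was not called (log2 0.99, adjusted p = 0.174). That p became 0.0439 without Δvps13 replicate 3. TRIREDRAFT_55005 of GT22, a family of dolichol-dependent mannosyltransferases, had 11.8, 10.6 and 11.1 CPM across the wild-type libraries, 8.8, 12 and 7.67 across Δvps13 and 17.9, 18.6 and 16.6 across Δvps21. Its Δvps21 libraries were above all others, with a rise of 1.58-fold (log2 0.66, SE 0.23, adjusted p = 0.0445). That p became 0.0918 to 0.142 without any 1 wild-type or Δvps21 library, 0.274 scaled by library totals only, 0.05003 with no filter on low counts and 0.0524 with a filter of 10 CPM in 3 libraries. Against Δvps13 it was called higher as well (log2 0.90, SE 0.23, adjusted p = 0.0243). That p became 0.0755 to 0.0862 without any 1 Δvps21 library, 0.0510 without wild-type replicate 3, 0.0900 when only these 2 strains were fitted and 0.0570 scaled by library totals only. The oligosaccharyltransferase subunit gene of GT66, TRIREDRAFT_120807, whose family holds the catalytic subunit Stt3, had 88.9, 107 and 91.2 CPM across the wild-type libraries, 107, 100.4 and 124.8 across Δvps13 and 104, 129 and 109.7 across Δvps21 and was not called. The members of GT33, GT57 and GT58, families of yeast Alg1, Alg6 and Alg3, were not called in either strain, nor were the other 2 GT22 genes; TRIREDRAFT_103850 of GT33 had an adjusted p of 0.0226 in Δvps13 without Δvps13 replicate 3. The GT76 gene TRIREDRAFT_56203, of the family of yeast Gpi18, lay below the wild type in every Δvps21 library but was not called (log2 -1.55, SE 0.55, adjusted p = 0.0501). That p became 0.0337 and 0.00978 without Δvps13 replicates 1 and 3, 0.0243 by DESeq2 and 0.00520 when only these 2 strains were fitted.

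Among the storage sugar families, the most abundant gene was lower in every Δvps21 library without being called. Family GT20 holds the trehalose-6-phosphate synthases, and family GT8 includes glycogenin, the primer of glycogen. Of 6 members, 0 were called in Δvps13 (edgeR; 0 by DESeq2 and 2 at unadjusted p under 0.05), and 1 rose in Δvps21, where the other 5 were not called. Among all tested genes 10.4% were called in Δvps13 and 32.5% in Δvps21. The GT20 gene TRIREDRAFT_75295 (NW_006711150.1, 722795 to 726953) had 740.4, 927 and 839.6 CPM across the wild-type libraries, 550.1, 1374 and 867 across Δvps13 and 441, 463 and 524 across Δvps21. Its log2 ratio in Δvps21 was -0.81 (SE 0.31, adjusted p = 0.0682). It was called in other fits, with an adjusted p of 0.0115 to 0.0395 without any 1 Δvps13 library, 0.0353 by DESeq2, 4.63e-04 when only these 2 strains were fitted and 0.0118 scaled by library totals only. Against Δvps13 it was log2 -0.97 (adjusted p = 0.0601, but 0.00417 and 0.0348 without Δvps13 replicates 1 and 3 and 0.0152 by DESeq2), and Δvps13 itself ran from 550.1 to 1374 CPM.

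TRIREDRAFT_48707, a second GT20 gene, had 150.0, 191 and 181 CPM across the wild-type libraries, 81.1, 127 and 141 across Δvps13 and 118, 121 and 112 across Δvps21. Both deletion strains lay wholly below the wild type, at log2 -0.58 in Δvps13 and -0.57 in Δvps21 (adjusted p = 0.119 and 0.0741). In Δvps13 the adjusted p was 0.0216 without Δvps13 replicate 3 and 0.0103 scaled by library totals only; in Δvps21 it was 0.0197 and 0.0318 without Δvps13 replicates 1 and 3, 0.00433 when only these 2 strains were fitted and 0.0147 scaled by library totals only. Another, TRIREDRAFT_77602, had 105, 124.8 and 130.5 CPM across the wild-type libraries, 87.5, 199.6 and 174 across Δvps13 and 135, 137 and 161 across Δvps21 and was not called in either strain. In Δvps13 its log2 ratio was 0.35 (adjusted p = 0.417). That p became 0.0427 without Δvps13 replicate 1. The fourth, TRIREDRAFT_73134, was lower, at 0.632 to 0.907 CPM in the wild type and 0.969 to 2.91 in Δvps21, where it rose 2.59-fold (log2 1.37, SE 0.48, adjusted p = 0.0462). That p became 0.0890 to 0.132 without any 1 wild-type library, 0.0514 without Δvps13 replicate 2, 0.210 and 0.106 without Δvps21 replicates 1 and 3, 0.107 scaled by library totals only and 0.0533 with no filter on low counts. Of the GT8 genes, TRIREDRAFT_72012 had 65.3, 69.9 and 73.3 CPM across the wild-type libraries, 96.2, 82.2 and 97.8 across Δvps13 and 48.7, 57.2 and 53.1 across Δvps21. Its strains did not overlap: Δvps13 was highest and Δvps21 lowest, and the difference between the deletion strains was called (log2 -0.80, SE 0.17, adjusted p = 0.0109, but 0.0550 and 0.0565 without Δvps21 replicates 1 and 3 and 0.101 scaled by library totals only), while neither difference from the wild type was (log2 0.41 and -0.39, adjusted p = 0.142 and 0.0983, the latter 0.0335 when only these 2 strains were fitted). TRIREDRAFT_71117 was not called in any comparison.

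Of the 2 members that fell in both deletion strains, a GT1 gene kept both calls whichever library was left out. GT1 enzymes use nucleotide sugars to glycosylate small molecules such as sterols and secondary metabolites, and GT21 holds the ceramide glucosyltransferases. Of the 8 members, 1 rose and 1 fell in Δvps13, and 2 rose and 3 fell in Δvps21. Over all tested genes these shares were 5.65% up and 4.75% down in Δvps13 and 16.7% up and 15.8% down in Δvps21. TRIREDRAFT_77547 (NW_006711155.1, 562756 to 564506), with a UDP-glucosyltransferase domain in the deposited table, had 15.8, 17.5 and 18 CPM across the wild-type libraries, 3.06, 2.38 and 5.67 across Δvps13 and 2.56, 1.94 and 1.53 across Δvps21. All 6 deletion libraries were below all 3 wild-type libraries, a fall of 4.68-fold in Δvps13 (log2 -2.23, SE 0.34, adjusted p = 0.00502) and 8.44-fold in Δvps21 (log2 -3.08, SE 0.36, adjusted p = 2.10e-04). The deletion strains were not called different from each other (log2 -0.85, adjusted p = 0.135).

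A second gene with this domain was low in Δvps21. TRIREDRAFT_68821 (NW_006711173.1, 255298 to 256554) had 78.9, 66.1 and 75.7 CPM across the wild-type libraries, 74.1, 103 and 143 across Δvps13 and 27.5, 24.2 and 26.4 across Δvps21. It fell 2.82-fold in Δvps21 (log2 -1.50, SE 0.24, adjusted p = 0.00111) and was 4.10-fold lower than in Δvps13 (log2 -2.03, SE 0.24, adjusted p = 5.59e-04), with all 3 Δvps21 libraries below the other 6. In Δvps13 it was not called (log2 0.54, adjusted p = 0.155). That p became 0.0269 without Δvps13 replicate 1. TRIREDRAFT_74505 had 20.9, 20.8 and 16.3 CPM across the wild-type libraries, 6.44, 6.17 and 17.4 across Δvps13 and 7.25, 10.7 and 7.12 across Δvps21. It fell 2.31-fold in Δvps21 (log2 -1.21, SE 0.38, adjusted p = 0.0328). That p became 0.0580 to 0.0962 without any 1 wild-type library and 0.112 and 0.121 without Δvps21 replicates 1 and 3. In Δvps13, replicates 1 and 2 lay below every Δvps21 library and replicate 3 lay within the wild-type range; the adjusted p was 0.125, but 8.02e-04 without Δvps13 replicate 3 and 0.0258 scaled by library totals only. TRIREDRAFT_80654, at the low end of the family, had 4.87, 4.54 and 5.27 CPM across the wild-type libraries, 13.8, 9.44 and 13.5 across Δvps13 and 8.96, 7.43 and 8.14 across Δvps21. It rose 2.50-fold in Δvps13 (log2 1.32, SE 0.25, adjusted p = 0.0109, but 0.0689 without wild-type replicate 2 and 0.0642 scaled by library totals only) and 1.67-fold in Δvps21 (log2 0.74, SE 0.25, adjusted p = 0.0425, but 0.0625 to 0.140 without any 1 wild-type or Δvps21 library and 0.245 scaled by library totals only), and Δvps13 was wholly above Δvps21.

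TRIREDRAFT_62182, with a GRAM domain as in the sterol glucosyltransferase Atg26 of yeast, had 103, 115 and 103 CPM across the wild-type libraries, 169, 185 and 109.8 across Δvps13 and 108, 91.6 and 90.2 across Δvps21. Replicates 1 and 2 of Δvps13 were above the wild type and replicate 3 was within it, and the gene was not called (log2 0.53, adjusted p = 0.137). That p became 0.00683 without Δvps13 replicate 3. Between the deletion strains its log2 ratio was -0.68 (adjusted p = 0.0586). That p became 0.00386 without Δvps13 replicate 3 and 0.0242 by DESeq2. TRIREDRAFT_77227, the GT21 gene, had 22.1, 22.2 and 30.1 CPM across the wild-type libraries, 26.8, 33.1 and 42.6 across Δvps13 and 52.8, 43.8 and 60.8 across Δvps21. It rose 2.12-fold in Δvps21 (log2 1.08, SE 0.23, adjusted p = 0.00544), a call that held with any 1 library left out, and was not called for Δvps13 (log2 0.46, adjusted p = 0.213) or between the deletion strains (log2 0.62, adjusted p = 0.0925). That p became 0.0159 without Δvps13 replicate 3 and 0.0498 scaled by library totals only. TRIREDRAFT_105924 and TRIREDRAFT_62424 were not called: their log2 ratios in Δvps21 were -0.40 and -0.68, and the second had an adjusted p of 0.0587 (0.0400 and 0.0283 without Δvps13 replicates 1 and 3, 0.0260 without Δvps21 replicate 2, 0.0347 by DESeq2, 0.0142 when only these 2 strains were fitted and 0.0482 scaled by library totals only). In Δvps13 the log2 ratio of TRIREDRAFT_105924 was -0.75 (adjusted p = 0.233). That p became 0.0155 without Δvps13 replicate 3 and 0.0381 scaled by library totals only.

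**Figure D3:**
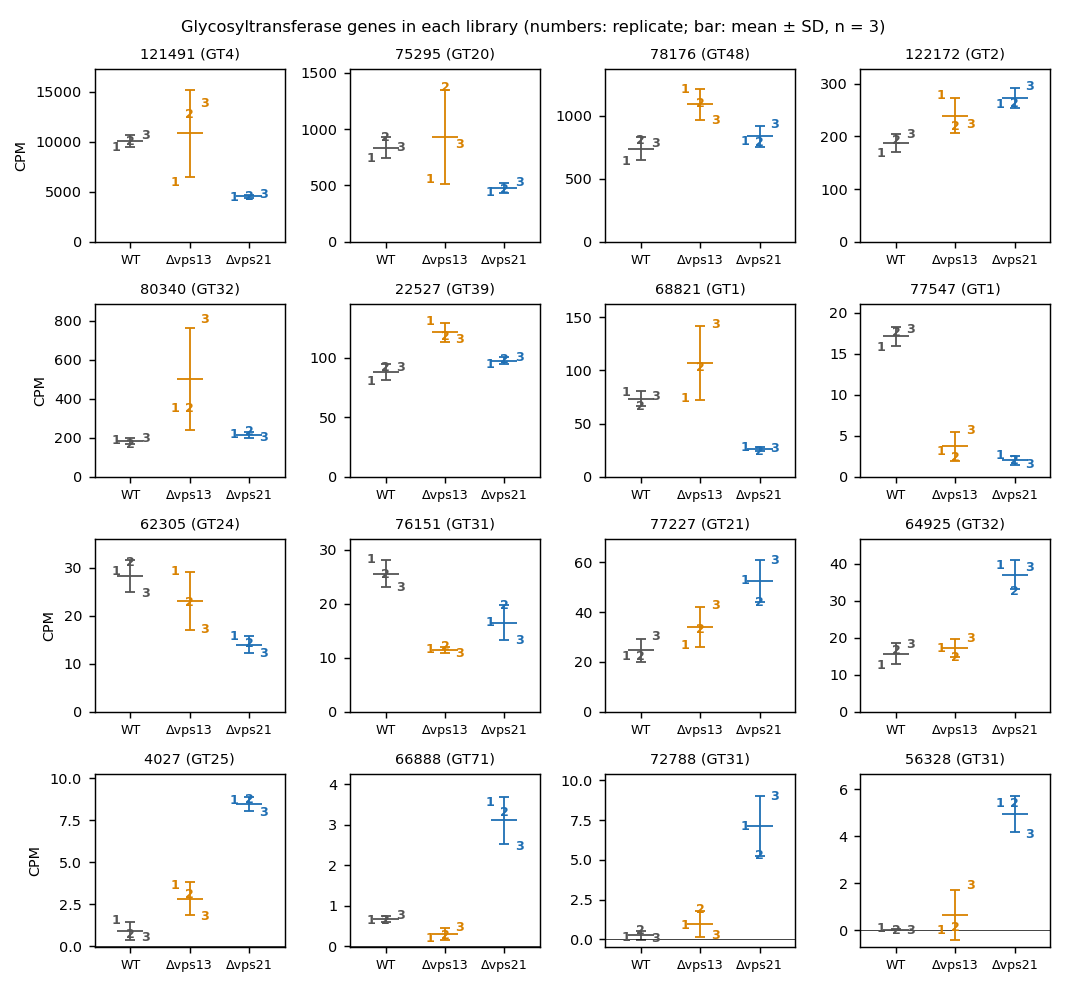
CPM of 16 members in each library (digits give the replicate, bars the mean ± SD of 3 libraries; each panel has its own linear axis; WT is the wild type). TRIREDRAFT_121491 and TRIREDRAFT_68821 are lowest in Δvps21, TRIREDRAFT_77547 is low in both deletion strains, and the bottom row shows genes near 0 in the wild type with 2.46 CPM or more in every Δvps21 library.

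The remaining families, GT17, GT25, GT31, GT41, GT64 and GT69, included genes with almost no counts in the wild type. Of their 13 members, 1 rose and 1 fell in Δvps13, and 4 rose and 3 fell in Δvps21. Among all tested genes 5.65% rose and 4.75% fell in Δvps13, and 16.7% rose and 15.8% fell in Δvps21. Family GT31 enzymes add sugars in beta-1,3 linkage in other organisms. TRIREDRAFT_56328 (NW_006711150.1, 99282 to 100802) of GT31 had 1, 0 and 0 counts across the wild-type libraries, 0, 1 and 16 across Δvps13 and 76, 67 and 48 across Δvps21. The 191 counts in Δvps21 against 1 in the wild type give a ratio of 216.9 with library size taken into account (38.5 to 8613). Against the 17 in Δvps13, of which 16 were in replicate 3, the ratio was 10.4 (6.34 to 18.3). Δvps21 was called higher than the wild type (adjusted p = 0.00244). It was called higher than Δvps13 too (adjusted p = 0.0451), but not in other fits (0.0690 to 0.115 without any 1 wild-type or Δvps21 library, 0.115 without Δvps13 replicate 2, 0.205 by DESeq2 and 0.111 when only these 2 strains were fitted). TRIREDRAFT_72788, also of GT31, had 2, 8 and 1 counts across the wild-type libraries, 14, 21 and 2 across Δvps13 and 100, 65 and 106 across Δvps21. Its ratio of summed counts to the wild type was 28 in Δvps21 (15.4 to 56.7; adjusted p = 7.88e-04). Against Δvps13 it was 6.8 (4.81 to 9.86; adjusted p = 0.0127, but 0.0635 without Δvps21 replicate 3). Its fitted log2 ratio moved from 4.76 to 5.99 without wild-type replicate 2, which holds 8 of the 11 wild-type counts, and from 2.79 to 3.50 against Δvps13 without Δvps13 replicate 2. For TRIREDRAFT_56328 it moved from 7.26 to 8.98 without wild-type replicate 1, and against Δvps13 from 3.13 to 2.43 and 6.75 without Δvps13 replicates 1 and 3. In Δvps13 TRIREDRAFT_72788 was not called (log2 1.97, adjusted p = 0.118). That p became 0.0128 without Δvps13 replicate 3 and 0.0425 by DESeq2. Nor was TRIREDRAFT_56328 (log2 4.13, adjusted p = 0.128). That p became 0.0346 without Δvps13 replicate 1. No wild-type library of these 2 genes reached the level of the count filter, as was also so of TRIREDRAFT_109361, so their calls follow in part from the filter.

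TRIREDRAFT_4027 of GT25 (NW_006711157.1, 25878 to 26926) rose in both strains. It had 1.52, 0.698 and 0.527 CPM across the wild-type libraries, 3.63, 3.09 and 1.77 across Δvps13 and 8.67, 8.72 and 7.97 across Δvps21. The strains did not overlap, with Δvps13 between the others: the rise was 3.08-fold in Δvps13 (log2 1.62, SE 0.43, adjusted p = 0.0379; log2 2.23 without wild-type replicate 1) and 9.05-fold in Δvps21 (log2 3.18, SE 0.43, adjusted p = 4.52e-04; log2 3.78 without wild-type replicate 1). The Δvps21 call held with any 1 library left out, whereas the Δvps13 adjusted p was 0.0613 to 0.0679 without any 1 Δvps21 library, 0.154 and 0.130 without wild-type replicates 2 and 3, 0.0640 and 0.0913 without Δvps13 replicates 1 and 2, 0.118 when only these 2 strains were fitted and 0.110 scaled by library totals only. Δvps21 was 2.94-fold above Δvps13 (log2 1.56, SE 0.40, adjusted p = 0.0233). That p became 0.0711 to 0.0755 without any 1 Δvps21 library and 0.0575 scaled by library totals only. TRIREDRAFT_66687 of GT17 had 10.05, 14.4 and 15.7 CPM across the wild-type libraries, 21.2, 18.3 and 12.9 across Δvps13 and 26.1, 19.4 and 28.3 across Δvps21 and rose 1.84-fold in Δvps21 (log2 0.88, SE 0.27, adjusted p = 0.0270). That p became 0.104 and 0.0701 without wild-type replicates 1 and 2, 0.0865 and 0.109 without Δvps21 replicates 1 and 3 and 0.179 scaled by library totals only.

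Of the GT31 genes expressed at higher levels, 2 fell. TRIREDRAFT_76151 had 28.2, 25.5 and 23 CPM across the wild-type libraries, 11.5, 12 and 10.7 across Δvps13 and 16.6, 19.6 and 13.1 across Δvps21. Both deletion strains were below the wild type, and Δvps13 was below Δvps21: the fall was 2.24-fold in Δvps13 (log2 -1.16, SE 0.22, adjusted p = 0.0102, but 0.0518 and 0.0562 without wild-type replicates 1 and 2) and 1.55-fold in Δvps21 (log2 -0.64, SE 0.21, adjusted p = 0.0410). That p became 0.0849 to 0.140 without any 1 wild-type library, 0.120 and 0.173 without Δvps21 replicates 1 and 3 and 0.0683 scaled by library totals only. TRIREDRAFT_54633 had 35.3, 37.9 and 39.2 CPM across the wild-type libraries, 19.3, 23.6 and 37.8 across Δvps13 and 20.8, 19.4 and 23.3 across Δvps21. It fell 1.77-fold in Δvps21 (log2 -0.82, SE 0.25, adjusted p = 0.0253, but 0.0562 to 0.0844 without any 1 wild-type or Δvps21 library), while in Δvps13 replicates 1 and 2 were low and replicate 3 lay within the wild-type range (adjusted p = 0.217). That p became 0.00762 without Δvps13 replicate 3 and 0.0317 scaled by library totals only. TRIREDRAFT_66804 of GT69, a family known from capsule formation in Cryptococcus, had 27.3, 26.4 and 29.2 CPM across the wild-type libraries, 22.2, 16.8 and 43.6 across Δvps13 and 13.2, 13.7 and 14.1 across Δvps21. Its fall in Δvps21 was 2.02-fold (log2 -1.02, SE 0.31, adjusted p = 0.0264, but 0.0649 to 0.0844 without any 1 wild-type or Δvps21 library), and Δvps21 was also below Δvps13 (log2 -1.01, SE 0.31, adjusted p = 0.0489). That p became 0.0732 to 0.141 without any 1 wild-type or Δvps21 library, 0.0761 without Δvps13 replicate 3, 0.124 when only these 2 strains were fitted, 0.108 scaled by library totals only and 0.0555 with a filter of 10 CPM in 3 libraries. The GT64 gene TRIREDRAFT_62377 had 103, 88.4 and 96.1 CPM across the wild-type libraries, 98.4, 112 and 114 across Δvps13 and 68.5, 56.4 and 77.6 across Δvps21. Δvps21 was below both other strains, with a call against Δvps13 (log2 -0.68, SE 0.18, adjusted p = 0.0309, but 0.0637 to 0.114 without any 1 Δvps21 library, 0.0561 and 0.0591 without wild-type replicates 2 and 3, 0.0599 without Δvps13 replicate 2, 0.0976 when only these 2 strains were fitted and 0.172 scaled by library totals only) and none against the wild type (log2 -0.51, SE 0.18, adjusted p = 0.0547). That p became 0.0398 and 0.0295 without Δvps13 replicates 1 and 3, 0.0297 by DESeq2, 0.0125 when only these 2 strains were fitted and 0.0469 scaled by library totals only. TRIREDRAFT_81661, TRIREDRAFT_122992, TRIREDRAFT_123173 of GT41, TRIREDRAFT_56638 and TRIREDRAFT_56876 were not called in any comparison, though TRIREDRAFT_123173 had an adjusted p of 0.0484 in Δvps13 without Δvps13 replicate 3, and TRIREDRAFT_56876 of 0.0321 in Δvps21 when only the 2 strains compared were fitted.

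**Figure D4:**
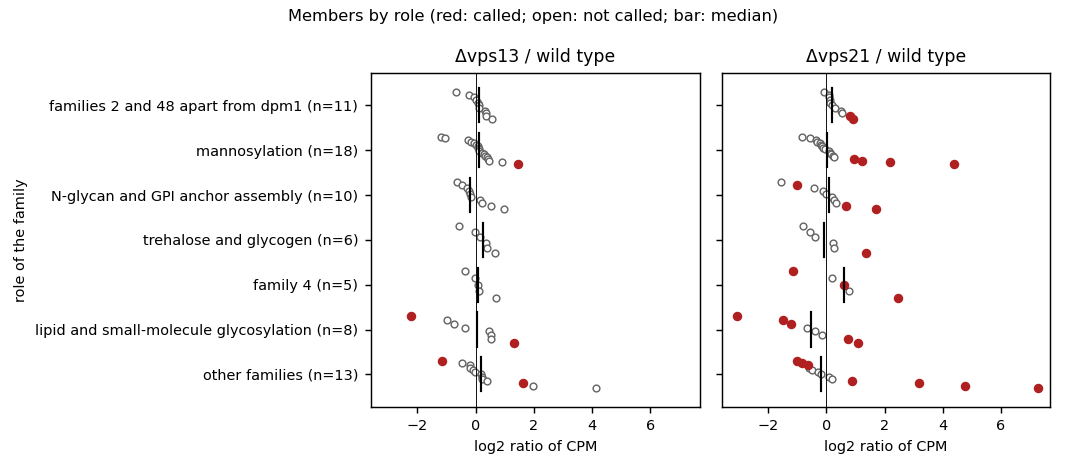
Log2 ratios of CPM to the wild type for the 71 tested members, by the role of their family (rows) in Δvps13 (left) and Δvps21 (right); red points are called, open points are not, and the black bar is the median of the row. The red points at the far right are genes that are nearly silent in the wild type, and most medians lie near 0.

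The rises and falls in Δvps21 were also counted by expression level in the wild type. All 7 tested members under 1 FPKM in the wild type rose in Δvps21, where 29.9% of the 521 tested genes under 1 FPKM rose and 8.45% fell. TRIREDRAFT_4027 and TRIREDRAFT_73134 reached the level of the count filter in 5 and 3 libraries outside Δvps21. The other 5 passed it through their Δvps21 libraries, 3 of them with no wild-type library at that level, so the count is a description. The 7 were TRIREDRAFT_68470, TRIREDRAFT_73134, TRIREDRAFT_4027, TRIREDRAFT_72788, TRIREDRAFT_56328, TRIREDRAFT_109361 and TRIREDRAFT_66888, and 1 of them, TRIREDRAFT_4027, also rose in Δvps13. Among the 48 tested members of 10 FPKM or more in the wild type, 6 rose and 7 fell in Δvps21. Over tested genes of every level 16.7% rose and 15.8% fell. The shares among all genes of 10 FPKM or more were not computed.

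The members lay on 30 contigs, and 6 pairs had 4 or fewer gene models between them. Within contig NW_006711157.1, with 2 or fewer gene models between them, lay TRIREDRAFT_4027 (GT25), TRIREDRAFT_78176 (GT48) and TRIREDRAFT_62305 (GT24), whose log2 ratios in Δvps21 were 3.18, 0.18 and -1.02, of which the first and the last were called. The 3 genes on either side of the 17 members that rose in Δvps21 gave 88 tested neighbours, of which 18.2% rose and 18.2% fell, near the 16.7% and 15.8% of all tested genes. Beside the 8 members that fell, 18.6% of 43 neighbours rose and 16.3% fell. TRIREDRAFT_121491 has a gene model 330 bases beyond its end coordinate that is without a name in the table and that was also lower in Δvps21, at 22.6 ± 7.36 CPM against 77.6 ± 23.6 in the wild type (log2 -1.78, adjusted p = 0.0189). On its other side TRIREDRAFT_60458, described as a non-ribosomal peptide synthetase and 14 bases away, was not called in Δvps21 (log2 0.03, adjusted p = 0.949). Of the 5 tested genes among the 3 on either side of TRIREDRAFT_121491, 3 fell in Δvps21, among them TRIREDRAFT_60419 at 2411 bases (log2 -3.81, adjusted p = 0.00125). The neighbours named were picked after their values were seen. Without strand in the counting, reads of such close genes cannot be told apart near their ends.

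Genes that supply the donors of these enzymes fell in part. Of 4 tested genes of sugar nucleotide supply, 2 fell in Δvps13, 3 fell in Δvps21 and the rest were not called, with median log2 ratios of -0.52 and -0.70 (0.04 and -0.02 over all tested genes). Of all tested genes, 4.75% fell in Δvps13 and 15.8% in Δvps21. The mannose-6-phosphate isomerase gene TRIREDRAFT_81700, at the entry to GDP-mannose, had 49, 55.5 and 52.5 CPM across the wild-type libraries, 24, 25.3 and 36.1 across Δvps13 and 22.1, 23.5 and 20.9 across Δvps21. It fell 1.84-fold in Δvps13 (log2 -0.88, SE 0.20, adjusted p = 0.0211, but 0.0606 to 0.100 without any 1 wild-type library, 0.0705 without Δvps13 replicate 2 and 0.0760 when only these 2 strains were fitted) and 2.36-fold in Δvps21 (log2 -1.24, SE 0.20, adjusted p = 0.00128). The GDP-mannose pyrophosphorylase gene mpg1 had 143, 159 and 157 CPM across the wild-type libraries, 113, 128 and 171 across Δvps13 and 78.8, 90.1 and 88.3 across Δvps21. It fell 1.79-fold in Δvps21 (log2 -0.84, SE 0.20, adjusted p = 0.00884) and was not called for Δvps13 (log2 -0.16, adjusted p = 0.627). Against Δvps13, Δvps21 was lower (log2 -0.68, SE 0.20, adjusted p = 0.0414). That p became 0.0603 to 0.138 without any 1 wild-type or Δvps21 library, 0.0523 and 0.0569 without Δvps13 replicates 2 and 3, 0.116 when only these 2 strains were fitted and 0.114 scaled by library totals only. The UDP-glucose pyrophosphorylase gene ugp1, which makes the donor of glucan, glycogen and trehalose synthesis, had 142, 162 and 125.3 CPM across the wild-type libraries, 64.8, 63.1 and 84.9 across Δvps13 and 83.7, 109 and 96.1 across Δvps21. It fell 2.02-fold in Δvps13 (log2 -1.01, SE 0.20, adjusted p = 0.0126, but 0.0746 without wild-type replicate 2) and 1.49-fold in Δvps21 (log2 -0.57, SE 0.20, adjusted p = 0.0474). That p became 0.0580 to 0.182 without any 1 wild-type or Δvps21 library, 0.0512 with median-ratio size factors and 0.0554 with no filter on low counts. The phosphomannomutase gene TRIREDRAFT_121068 was not called (log2 0.72 and 0.52, adjusted p = 0.0556 and 0.0836).

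Of 12 tested genes of storage sugar turnover, 1 rose and 1 fell in Δvps13, and 2 rose and 5 fell in Δvps21, with median log2 ratios of -0.52 and -0.70. Of all tested genes, 5.65% rose and 4.75% fell in Δvps13, and 16.7% rose and 15.8% fell in Δvps21. The list was drawn by family names, so it also holds the light regulator gene env1 and the kinase gene gsk3, neither of which was called, and glycoside hydrolase family 13 (GH13) genes whose substrate the table does not give. The GH13 genes TRIREDRAFT_108477 and TRIREDRAFT_57128 fell 7.32-fold and 3.12-fold in Δvps21 (adjusted p = 0.00285 and 0.00294). In Δvps13 the first had log2 -1.33, adjusted p = 0.119, with 6.39e-05 without Δvps13 replicate 3 and 0.0166 scaled by library totals only, and the second log2 -0.69, adjusted p = 0.167, with 0.00450 without Δvps13 replicate 3 and 0.0147 scaled by library totals only. The GH13 genes TRIREDRAFT_59578 and TRIREDRAFT_123368 were called in both strains: in Δvps21 the first rose (log2 2.29, adjusted p = 0.00732) and the second fell (log2 -1.42, adjusted p = 0.0257). That p became 0.0544 to 0.0767 without any 1 wild-type library and 0.0997 and 0.0851 without Δvps21 replicates 1 and 3. In Δvps13 TRIREDRAFT_59578 rose 4.50-fold (log2 2.17, SE 0.53, adjusted p = 0.0271). That p became 0.0863 to 0.107 without any 1 wild-type library. TRIREDRAFT_123368 fell 2.80-fold there (log2 -1.49, SE 0.43, adjusted p = 0.0491). That p became 0.0687 to 0.151 without any 1 wild-type or Δvps21 library, 0.132 without Δvps13 replicate 2 and 0.117 when only these 2 strains were fitted; without Δvps13 replicate 3 the log2 was -2.10. The glycogen synthase gene gys1, picked after its values were seen, had 175, 198 and 221 CPM across the wild-type libraries, 90.00, 107 and 168 across Δvps13 and 93.6, 108 and 88.4 across Δvps21. All 3 Δvps21 libraries were below the wild type, and it fell 2.05-fold (log2 -1.04, SE 0.24, adjusted p = 0.00855); in Δvps13 it was not called (log2 -0.70, adjusted p = 0.0873). That p became 0.00254 without Δvps13 replicate 3 and 0.00818 scaled by library totals only.

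Enzymes that trim or remodel the products were split between rises and falls. Of 25 tested genes of glycan trimming, 1 rose and 2 fell in Δvps13, and 6 rose and 6 fell in Δvps21. The shares of all tested genes were 5.65% up and 4.75% down in Δvps13 and 16.7% up and 15.8% down in Δvps21. The GH76 gene TRIREDRAFT_55802 rose in both strains (log2 1.96, adjusted p = 0.00268 in Δvps13; log2 1.55, adjusted p = 0.00153 in Δvps21). Another GH76 gene, TRIREDRAFT_27395, rose in Δvps21 (log2 2.72, adjusted p = 1.25e-04) and was not called for Δvps13 (log2 0.69, adjusted p = 0.125). The GH38 gene TRIREDRAFT_3196 fell in both strains. Its values were log2 -1.50, SE 0.21, adjusted p = 5.45e-04 in Δvps21 and log2 -1.06, SE 0.21, adjusted p = 0.0120 in Δvps13, where the p became 0.0752 without wild-type replicate 2. The GH76 gene TRIREDRAFT_122495 was lower in Δvps21 than in Δvps13 (log2 -2.50, SE 0.44, adjusted p = 0.00452). Against the wild type it fell in Δvps21 (log2 -1.23, adjusted p = 0.0498). That p became 0.0923 to 0.162 without any 1 Δvps21 library, 0.121 and 0.180 without wild-type replicates 1 and 2, 0.0518 scaled by library totals only, 0.0519 with median-ratio size factors and 0.0506 with no filter on low counts. In Δvps13 it was above, at log2 1.27, adjusted p = 0.0717, with 0.00343 without Δvps13 replicate 3 and 0.0228 by DESeq2. GH76 and GH38 are families of mannan and mannoside hydrolases. Of 42 tested genes of wall remodelling, 3 rose and 4 fell in Δvps13, and 13 rose and 9 fell in Δvps21, to be read against the same shares of all tested genes. The GH18 gene TRIREDRAFT_112392, of the chitinase family, rose in Δvps21 (log2 5.16, SE 0.57, adjusted p = 1.80e-04), as did the GH81 gene TRIREDRAFT_79602, of a beta-1,3-glucanase family (log2 3.50, SE 0.42, adjusted p = 2.43e-04). In Δvps13 these 2 genes were not called (log2 1.05, adjusted p = 0.271 for TRIREDRAFT_112392; log2 1.00, adjusted p = 0.128 for TRIREDRAFT_79602). That p became 0.00196 without Δvps13 replicate 3. The chitinase gene chi18-16 fell in Δvps13 (log2 -2.75, SE 0.53, adjusted p = 0.0112; without Δvps13 replicate 3 the log2 was -3.50). In Δvps21 its log2 ratio was above 0 and not called (log2 1.05, adjusted p = 0.0792). That p became 0.0289 and 0.0133 without Δvps13 replicates 1 and 3, 0.0317 by DESeq2 and 0.00489 when only these 2 strains were fitted. The GH55 gene TRIREDRAFT_54242 fell in both strains, in Δvps21 with log2 -2.86, adjusted p = 0.00111 and in Δvps13 with log2 -2.38, adjusted p = 0.0102, where the p became 0.0543 without wild-type replicate 3.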

How the data were processed

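Mycelium of Rut-C30 and its 2 deletion strains was sequenced as polyadenylated RNA in 3 libraries per strain. Read counts per gene and FPKM values were deposited by the authors in separate tables. The submitters' processing notes name HISAT2 2.0.5 and featureCounts 1.5.0-p3. For genome build, annotation and use of strand the entry is: not given in the sources used here. Gene positions are those of the deposited count table.

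Deposited counts were fitted with edgeR 4.0.16 (limma 3.58.1, R 4.3.3): TMM scaling, filterByExpr with a minimum count of 10, 1 group mean per strain over all 9 libraries, and a quasi-likelihood test per contrast. The Benjamini-Hochberg adjustment ran over the 8906 tested genes, and the common biological coefficient of variation was 0.287. FPKM was used only to compare levels between genes. Alternatives were DESeq2 1.42.0, median-ratio size factors, library totals, other filters, the 2 strains compared alone, a replicate block, a log2 minimum of 1, a looser description rule and each library left out.

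Members, gene lists and the rule for named genes were chosen with earlier results of these data known. Named were TRIREDRAFT_121491, the 8 called members with the largest log2 ratio per direction and comparison, the most abundant member of each family, tested members of the wall, storage and mannosylation families, and the 2 genes of each further list with the smallest p per comparison; a member named beyond this was picked after its values were seen. Of the 10348 genes, 7046 are described as predicted proteins, so unlabelled glycosyltransferases are not members. No sample was left out. No library repeated another beyond sampling noise: chi-square per degree of freedom between libraries of a strain was 13.1 or more.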

Additional observations from a re-analysis of the deposited data

How the results depend on the processing

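No member changed direction while called under any alternative. In Δvps13 against the wild type, 5 members were called, and 8 with library totals only (1 higher, 7 lower), 3 with a filter of 10 CPM in 3 libraries, 3 when only the 2 strains were fitted and 9 by DESeq2 (7 higher, 2 lower); leaving out 1 library gave 1 to 19. In Δvps21 against the wild type, 25 were called, 16 of them with an absolute log2 of 1 or more, and leaving out 1 library gave 12 to 33. In Δvps21 against Δvps13, 17 were called, and 10 with library totals only, 11 with the filter of 10 CPM, 8 when only the 2 strains were fitted and 11 with an absolute log2 of 1 or more; leaving out 1 library gave 5 to 20. Over all genes, 926 were called in Δvps13, 1262 with library totals only and 707 with the filter of 10 CPM. When only the 2 strains were fitted 298 were called, and 1620 by DESeq2. Between the deletion strains 1356 were called, 1086 with library totals only, 1078 with the filter and 612 with only these 2 fitted. Leaving out 1 library gave 165 to 3233 in Δvps13, 1705 to 4236 in Δvps21 and 514 to 2216 between the deletion strains. The cause of these moves was not tested, apart from the filter and the log2 minimum, which by construction leave fewer genes. DESeq2 also called 25 of 25, 5 of 5 and 16 of 17 of the members called in Δvps21, in Δvps13 and between the deletion strains. Leaving out Δvps13 replicate 3 raised the number of all genes called in Δvps13 from 926 to 3233.

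Whether replicate numbers pair the samples could not be settled. Deviations of same-numbered libraries from their group means correlated at 0.111, 0.0925 and 0.158 between the wild type and Δvps13. The values were 0.0484, -0.0497 and 0.11 between the wild type and Δvps21, and 0.512, -0.103 and -0.091 between the deletion strains. Differently numbered libraries gave -0.204 to 0.0825, -0.129 to 0.0786 and -0.454 to 0.448 in these comparisons. Deviations within a strain are tied to each other by their shared mean, so this check cannot exclude pairing. With the replicate number as a block, 6, 23 and 16 members were called in Δvps13, in Δvps21 and between the deletion strains. Over all genes, 807, 2879 and 1289 were called with this block.

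With 3 libraries per strain of unstated origin, p-values measure the spread between libraries. Members near 0 in the wild type rest on few counts, so their fitted ratios depend on the prior count of the fit. The Δvps13 values carry the widest spread. The vps13 transcript could not be checked by name, and reads of close neighbours cannot be told apart without strand.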

Other observations

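A looser rule, which took any description with the word glycosyltransferase or glycosyl transferase, added 7 genes without a family number, of which 6 were tested; with them the counts of called genes were 7 in Δvps13, 27 in Δvps21 and 17 between the deletion strains. The gene gph1, the name used for glycogen phosphorylase in yeast, was at 378 ± 68.3 CPM in wild-type libraries, 174 ± 74.5 CPM in those of Δvps13 and 95.3 ± 9.51 CPM in those of Δvps21 (mean ± SD, n = 3). It fell in Δvps21 (log2 -1.99, edgeR adjusted p = 9.52e-04), as did the glycogen synthase gene gys1 described above. In Δvps13 its log2 ratio was -1.12 (adjusted p = 0.0384, but 0.0600 to 0.135 without any 1 wild-type or Δvps21 library, 0.106 without Δvps13 replicate 2 and 0.110 when only these 2 strains were fitted). The gene pmt1, which shares its name with a yeast protein O-mannosyltransferase, was at 78.6 ± 10.6 CPM in wild-type libraries, 128 ± 12.1 CPM in those of Δvps13 and 100.4 ± 4.78 CPM in those of Δvps21. It rose in Δvps13 (log2 0.70, adjusted p = 0.0337, but 0.0533 to 0.124 without any 1 wild-type or Δvps21 library, 0.0770 without Δvps13 replicate 2, 0.103 when only these 2 strains were fitted and 0.333 scaled by library totals only). In Δvps21 its log2 ratio was 0.35 (adjusted p = 0.154, but 0.0419 when only these 2 strains were fitted). TRIREDRAFT_77557, described only as a glycosyltransferase, was at 47.1 ± 6.16 CPM in wild-type libraries, 23.7 ± 13.5 CPM in those of Δvps13 and 12.4 ± 4.36 CPM in those of Δvps21, where it fell (log2 -1.92, adjusted p = 0.00413). In Δvps13 it was not called (log2 -1.002, adjusted p = 0.114, but 0.00208 without Δvps13 replicate 3 and 0.0151 scaled by library totals only).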
